A study of Mus musculus with 10 samples.

Results

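The genes described are 10 genes of hepatic iron uptake, storage and hormonal control, among 23535 loci with values in the deposited table. They were chosen by symbol: the uptake genes Scara5, Tfrc, Tfr2 and Trf, the exporter gene Slc40a1, the ferritin genes Fth1 and Ftl1, the hepcidin genes Hamp and Hamp2, and Hfe2, which encodes hemojuvelin. Each symbol matched 1 locus, and none of the 10 loci overlapped another locus of the table. Scara5 was included with its lower level in KO already known.

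The libraries were made from whole mouse liver. All animals carried the floxed Arid1a allele on a mixed C57/B6 and 129 background and were at postnatal day 90. The WT group had the genotype Arid1a Fl/Fl, and the KO group had Arid1a Fl/Fl with Alb-cre, in which the albumin promoter drives Cre recombinase in hepatocytes. Cells of the liver in which Alb-cre has not acted keep Arid1a, a gene for a DNA-binding component of SWI/SNF chromatin remodellers. Both groups had undergone partial hepatectomy, the removal of most of the liver, 40 h before collection, with 3 libraries each. A further 4 libraries from before surgery were not analysed here, so no response to hepatectomy was computed. No label ties the libraries to separate mice. Where mice were shared, p-values reflect library-to-library spread alone, which may be technical.

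Hepatocytes take up iron from the blood carrier transferrin through transferrin receptor 1, and from ferritin and other carriers through further receptors, and they keep it inside ferritin shells. Ferroportin is the only known exporter of iron from cells. Hepcidin, a peptide hormone that hepatocytes secrete, binds ferroportin and causes its removal from the cell surface. Hepcidin transcription responds to bone morphogenetic proteins (BMPs), for which hemojuvelin is a co-receptor, and to interleukin-6 through STAT3.

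Several of these transcripts carry an iron responsive element, a short hairpin bound by iron regulatory proteins when iron is scarce. Binding before the coding sequence blocks translation, and binding after it stabilises the transcript, so transcript levels alone do not give ferritin or ferroportin protein. A search of the GENCODE M21 transcripts for the loop CAGTGN, ending in A, C or T, with 5 base pairs beside it and a C 6 bases before it, found the pattern in 4 of the 10 genes. Of 21877 protein-coding genes, 1.01% held it in at least 1 transcript. The matches are shown because they separate the storage and export genes, with 1 match each in the 5′ UTR, from Tfrc, with 4 in the 3′ UTR. Each line gives 30 bases of the GRCm38 transcript, 5′ to 3′, with the loop in capitals.
Fth1 (chr19:9982732-9982761, plus strand, 5′ UTR): ttcctgcttcaaCAGTGCttgaacggaacc
Ftl1 (chr7:45459778-45459807, minus strand, 5′ UTR): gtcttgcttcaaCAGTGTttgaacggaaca
Slc40a1 (chr1:45925464-45925493, minus strand, 5′ UTR): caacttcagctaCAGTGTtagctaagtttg
Tfrc (chr16:32631219-32631248, plus strand, 3′ UTR): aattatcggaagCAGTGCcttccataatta
Tfrc (chr16:32631598-32631627, plus strand, 3′ UTR): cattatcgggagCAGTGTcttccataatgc
Tfrc (chr16:32631663-32631692, plus strand, 3′ UTR): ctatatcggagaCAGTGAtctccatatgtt
Tfrc (chr16:32631710-32631739, plus strand, 3′ UTR): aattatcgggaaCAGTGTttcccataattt

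Promoter windows, from 250 bases before to 50 after a start site, were matched for 6 of the 10 genes in RefSeq (GRCm38.p6). Those of Hamp and Hamp2 are shown because both genes moved together across the libraries. Each line gives the 250 bases before the start. Capitals mark GGCGCC, the core of a BMP response element, and TTCNNNGAA, the STAT motif, in Hamp, and the bases aligned with them in Hamp2.
Hamp (chr7:30944030-30944279, minus strand): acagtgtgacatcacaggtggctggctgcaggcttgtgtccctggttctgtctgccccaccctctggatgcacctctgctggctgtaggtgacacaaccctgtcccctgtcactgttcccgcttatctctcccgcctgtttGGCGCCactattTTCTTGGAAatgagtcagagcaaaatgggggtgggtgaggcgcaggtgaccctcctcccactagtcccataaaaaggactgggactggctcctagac
Hamp2 (chr7:30924182-30924431, minus strand): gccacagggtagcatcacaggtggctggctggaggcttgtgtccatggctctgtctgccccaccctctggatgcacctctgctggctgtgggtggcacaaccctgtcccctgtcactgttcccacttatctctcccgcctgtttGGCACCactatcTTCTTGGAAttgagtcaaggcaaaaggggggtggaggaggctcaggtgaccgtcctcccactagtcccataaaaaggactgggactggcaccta

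The 2 windows were 91.9% identical over 247 aligned bases. GGCGCC lay 104 to 109 bases before the Hamp start, and the aligned Hamp2 bases carried the substitution G145A, counted from 1 at the 5′ end of the Hamp sequence. The STAT motif was unbroken in both. Searched on both strands of all 32851 windows, GGCGCC was present in 11.9% and TTCNNNGAA in 8.30%. Among the other matched genes, GGCGCC also occurred in a window of Tfrc. The motifs do not overlap each other. A match describes the letters only and shows no binding.

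FPKM, a fragment count scaled to transcript length and to the mapped total, summed to between 409142 and 495209 per library. Absolute depth is unknown. Relative to WT replicate 1, estimated depth was lowest in KO replicate 3 (0.839) and highest in WT replicate 2 (1.21). Arid1a was 8.68, 8.45 and 8.49 FPKM in WT against 4.41, 5.57 and 6.15 in KO, so every KO library lay below every WT library (limma adjusted p = 0.207). The 10 hepatocyte markers were all present, with albumin between 16226 and 29437 FPKM. Mitotic genes separated KO replicate 2 from the rest of its group: Ccnb1, which encodes cyclin B1, was 22.4, 0.244 and 31.5 FPKM in KO and between 0.210 and 1.98 in WT. The median log2 difference of all genes tested was 0.15, and 0.015 once the libraries were rescaled by the median of ratios.

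The comparison of KO with WT asks how transcripts of iron handling differ in regenerating liver without hepatocyte Arid1a. All 10 genes passed the filter of a mean of 1 FPKM over the 6 libraries. Of these, 1 was called at an adjusted p under 0.05, Scara5, and it was lower in KO. Scara5 was included with this direction already known, and it passed the filter only through its WT libraries. The count of genes called is therefore no evidence about the 10 genes as a set. In the same fit 0.119% of the 10956 genes tested were called, 0.1% as lower in KO and 0.0183% as higher. For the other 9 genes the adjusted p lay between 0.327 and 0.999. For 4 of the 10 genes the groups were fully apart, Scara5 and Tfr2 below and Tfrc and Ftl1 above, against 22.1% of all genes tested. After median-of-ratios rescaling 2 remained apart, Scara5 and Tfr2, against 17.8% of all genes. The median log2 difference of the 10 genes was 0.37, against 0.15 for all genes tested.

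**Figure D1:**
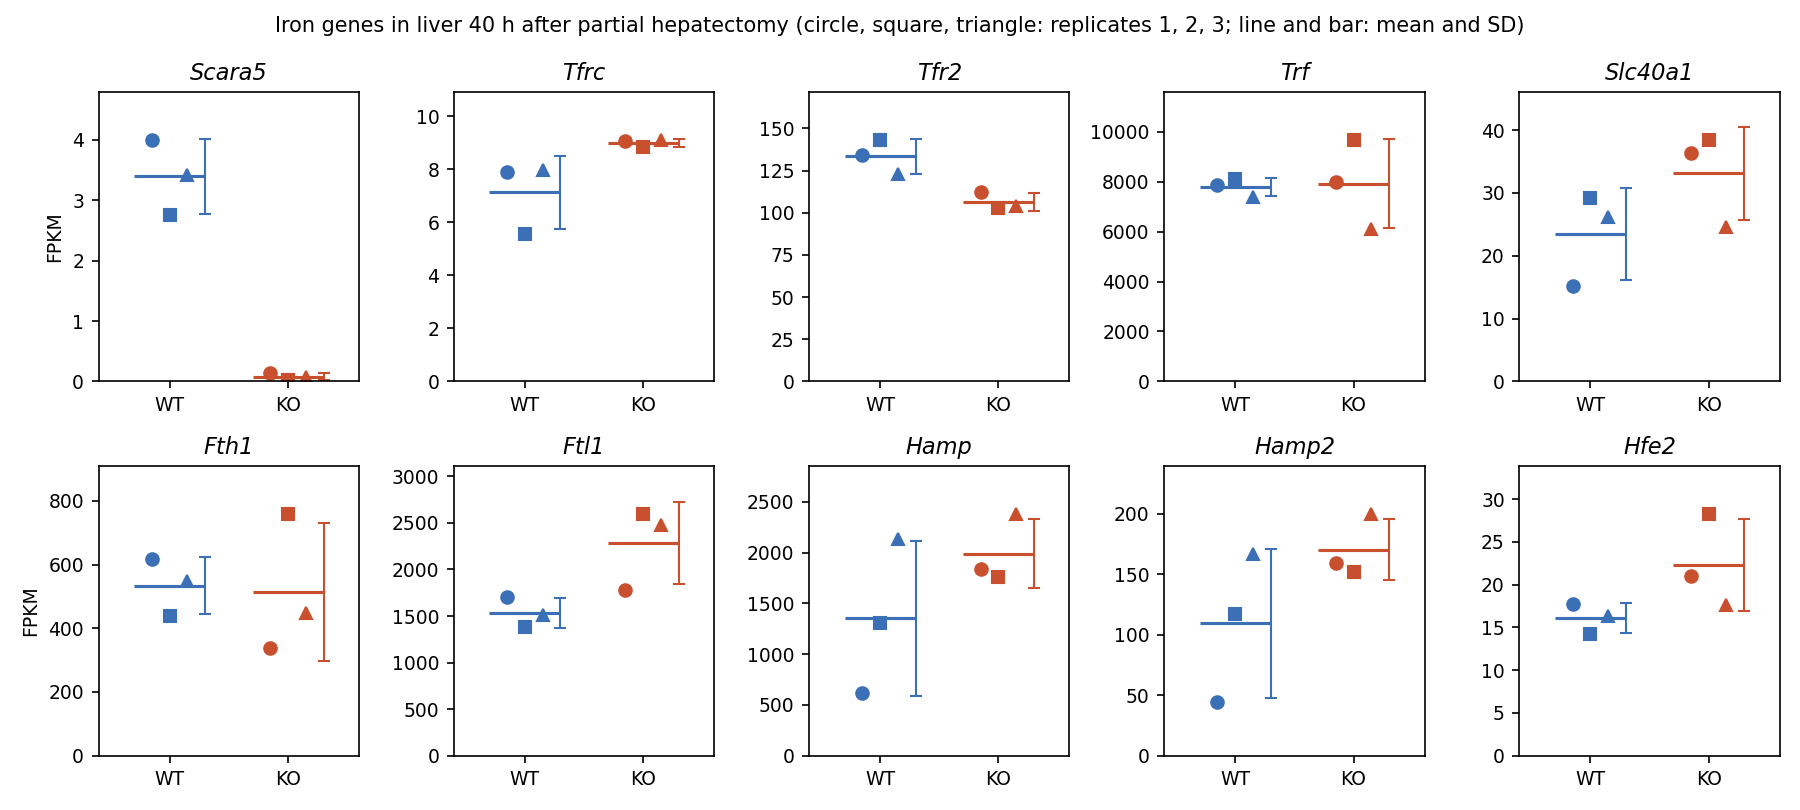
FPKM of the 10 iron genes in each library (y axis, from 0, own scale per gene), for 3 WT and 3 KO libraries at 40 h. Lines and bars give the mean and SD. Scara5 lies at or under 0.136 FPKM in every KO library, and Hamp and Hamp2 are lowest in WT replicate 1.

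Scara5 (chromosome 14, 65666403 to 65764826, GRCm38) encodes a class A scavenger receptor that binds ferritin and takes it into cells. It was 3.99, 2.76 and 3.42 FPKM in WT against 0.136, 0.0278 and 0.0686 in KO. The lowest WT library was thus far above the highest KO library. WT averaged 3.39 ± 0.616 FPKM (SD, n = 3) and KO 0.0776 ± 0.0549 (SD, n = 3), a ratio of 43.7. On the scale of log2(FPKM + 1), which understates changes near 1 FPKM, the difference was -2.02 (SE 0.18, limma adjusted p = 0.0302), the lowest 0.612% of all genes tested. Values this low in KO rest on few reads, and with a pseudocount of 0.1 in place of 1 the difference was -4.33. The call was lost when any of 5 of the 6 libraries was left out, all but KO replicate 2, with adjusted p from 0.0563 to 0.159, while the log2 difference stayed between -2.13 and -1.92.

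Whole liver was sequenced, so fewer cells of a type and less RNA per cell cannot be told apart. Scara5 is also known as a gene of fibroblast-like cells. Of 11 stellate cell and fibroblast markers tested, none was called, 9 overlapped between the groups, 1 lay entirely higher in KO and 1 entirely lower. The shares over all genes tested were 16.7% and 5.44%. The median log2 difference of the markers was -0.11, against 0.15 for all genes tested. The summed level of the markers was 140.6 to 157.0 FPKM in WT and 104.2 to 163.0 in KO. Reln, a stellate cell gene, was 8.88, 9.51 and 10.5 FPKM in WT against 16.7, 21.9 and 14.6 in KO. Ecm1, an extracellular matrix gene, was 29.8, 27.4 and 20.8 in WT against 17.9, 20.2 and 10.8 in KO. Lrat, another stellate cell marker, named after its values were seen, was 2.68, 3.23 and 3.15 in WT against 2.71, 1.92 and 1.01 in KO. The Lrat groups overlapped as deposited, and KO was entirely lower after median-of-ratios rescaling. Pdgfrb and Des of the same list, also named after their values were seen, overlapped between the groups with higher means in KO. Pdgfrb averaged 2.20 FPKM in WT and 2.85 in KO, and Des 2.29 and 2.60. No marker of the list was at 0 in all libraries, and the part of these cells in the Scara5 difference was not tested.

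The tested genes closest to Scara5 over the 6 libraries, by Euclidean distance between centred log2(FPKM + 1) values, were Clmn (0.35), Pde9a (0.35) and Enho (0.48). Clmn encodes calmin, an actin-binding membrane protein, and was 11.04, 9.56 and 9.47 FPKM in WT against 1.74, 1.15 and 1.25 in KO. Pde9a, a cyclic GMP phosphodiesterase gene, was 3.001, 2.78 and 3.63 in WT and 0.0926 in KO replicate 2, and stood at the table's floor of 0.001 in KO replicates 1 and 3. Enho, which encodes the secreted peptide adropin, was 40.4, 24.0 and 32.4 in WT against 8.45, 8.82 and 9.66 in KO. All of them were high in each WT library and low in each KO library, which follows from their selection by likeness to Scara5.

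Of 4 class A scavenger receptor genes tested, Scara5 included, 2 lay entirely higher and 2 entirely lower in KO. Their median log2 difference was -0.043, against 0.15 for all genes tested. The shares over all genes tested were 16.7% and 5.44%. Colec12 was 11.5, 13.4 and 14.5 FPKM in WT against 7.82, 6.26 and 8.17 in KO (adjusted p = 0.168). Msr1, the macrophage scavenger receptor, was 4.53, 6.69 and 5.29 in WT against 10.3, 9.82 and 7.78 in KO (adjusted p = 0.216). Marco, a receptor of Kupffer cells, was 9.84, 8.99 and 5.11 in WT against 16.9, 27.6 and 11.8 in KO (adjusted p = 0.264). None of these 3 genes passed the test, although the groups did not overlap for any of them. Scara3 did not reach the filter and was between 0.0922 and 0.530 FPKM. Of 12 macrophage markers tested, Marco included, 11 overlapped between the groups, and their sum was 121.1 to 183.6 FPKM in WT and 136.1 to 226.0 in KO.

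Tfrc (chromosome 16, 32608896 to 32632794) encodes transferrin receptor 1. It was 7.89, 5.55 and 7.97 FPKM in WT against 9.08, 8.84 and 9.10 in KO. Every KO library lay above every WT library, and the highest KO library was only 1.03 times the lowest, against 1.44 times in WT. The log2 difference was 0.31 (SE 0.16, 95% interval -0.077 to 0.70, adjusted p = 0.392). After rescaling the groups overlapped and the difference was 0.17, and without WT replicate 2 it was 0.16. The genes with the closest profiles were Atp1b1, a sodium pump subunit gene (distance 0.12), Scly, which encodes selenocysteine lyase (0.13), and Slc25a10, the mitochondrial dicarboxylate carrier gene (0.14). All 3 were lowest in WT replicate 2, as Tfrc was, and their selection by likeness to Tfrc favours this.

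Tfr2 (chromosome 5, 137569851 to 137587481) encodes transferrin receptor 2, which senses loaded transferrin at the hepatocyte surface and acts on hepcidin rather than on bulk uptake. It was 134.3, 143.0 and 122.8 FPKM in WT against 112.6, 103.1 and 103.7 in KO. All KO libraries were below all WT libraries, also after rescaling. The means were 133.4 ± 10.1 and 106.4 ± 5.30 (SD, n = 3 each), and the log2 difference was -0.32 (SE 0.16, 95% interval -0.70 to 0.053, adjusted p = 0.375). Trf (chromosome 9, 103208876 to 103230286) encodes transferrin itself and was the most abundant of the 10 genes. It was 7868, 8119 and 7377 FPKM in WT against 7985, 9659 and 6095 in KO, where the libraries spread on both sides of WT. Its log2 difference was -0.0012 (95% interval -0.61 to 0.61). Of the 50-base windows of its transcript, 79.8% also occur in the annotated gene model Gm20425, so the assignment of its reads depends on the authors' counting.

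**Figure D2:**
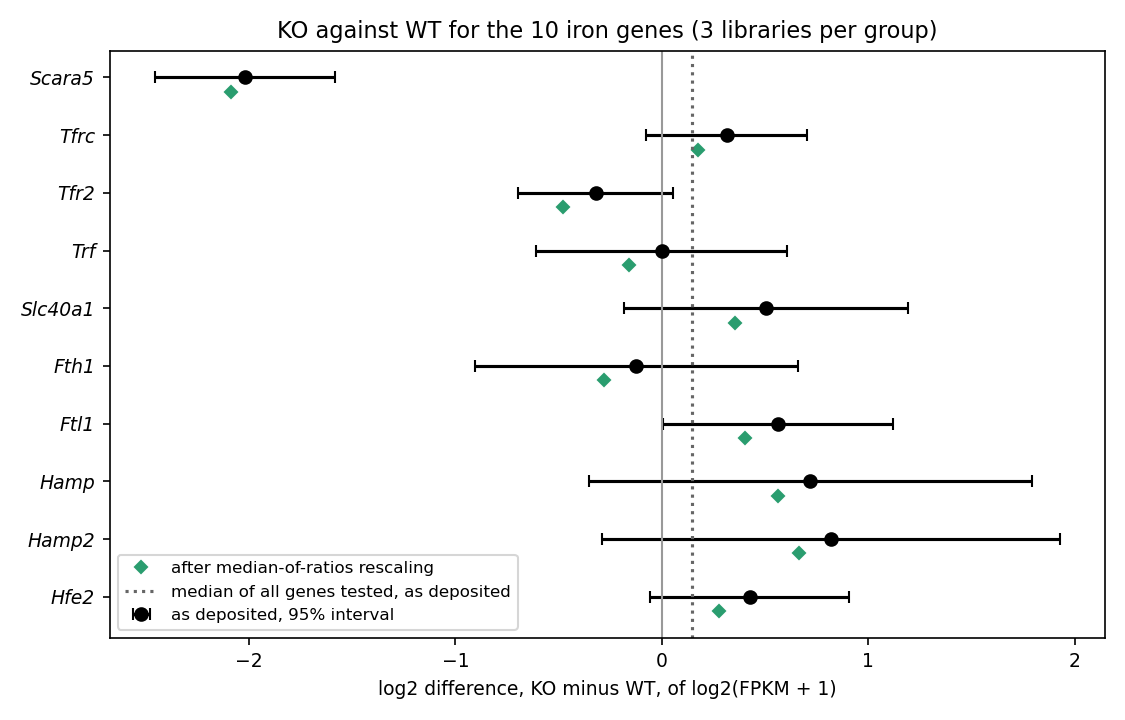
Log2 difference of KO minus WT on the log2(FPKM + 1) scale (x axis) for the 10 genes, with the 95% interval of the limma fit as bars and the value after median-of-ratios rescaling as diamonds. The intervals of Scara5 and Ftl1 exclude 0, and only Scara5 has an adjusted p under 0.05.

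Fth1 (chromosome 19, 9980600 to 9985111) and Ftl1 (chromosome 7, 45457944 to 45459886) encode the heavy and light chains of ferritin, of which the heavy chain oxidises iron on entry. Fth1 was 617, 438 and 548 FPKM in WT against 338, 757 and 448 in KO. The highest and the lowest library both belonged to KO. Its log2 difference was -0.12 (SE 0.33, 95% interval -0.90 to 0.66), and without KO replicate 1 the sign turned (0.14). Ftl1 was 1701, 1382 and 1513 in WT against 1784, 2591 and 2481 in KO, so all KO libraries lay above all WT libraries. Its means were 1532 ± 160 and 2285 ± 438 (SD, n = 3 each), with a log2 difference of 0.56 (SE 0.23, 95% interval 0.0039 to 1.12) and an adjusted p of 0.327. After rescaling the groups overlapped, and the difference was 0.40.

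Both chains were highest in KO replicate 2, the library with WT-like mitotic transcripts, and without it the log2 differences were -0.44 for Fth1 and 0.46 for Ftl1. The ratio of 2 genes within a library does not depend on how libraries are scaled. Fth1 to Ftl1 was 0.363, 0.317 and 0.362 in WT against 0.189, 0.292 and 0.181 in KO. Each KO ratio was below each WT ratio, with a mean log2 difference of -0.69. A two-sided exact permutation over 20 assignments, which can go no lower, gave p = 0.1, or 0.2 adjusted over the 4 ratios computed. Ferritin light chain reads are uncertain: 78.9% of the 50-base windows of the Ftl1 transcript occur in 15 other annotated genes, Ftl1-ps1 and Ftl2-ps among them, against 6.59% for Fth1.

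For the receptors, the ratio of Tfrc to Tfr2 was 0.0587, 0.0388 and 0.0649 in WT against 0.0807, 0.0857 and 0.0877 in KO. It was higher in every KO library than in any WT library, by 0.68 on the log2 scale (exact permutation p = 0.1, adjusted 0.2). Per length, Tfr2 transcripts were thus far more abundant than those of Tfrc in all 6 libraries.

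**Figure D3:**
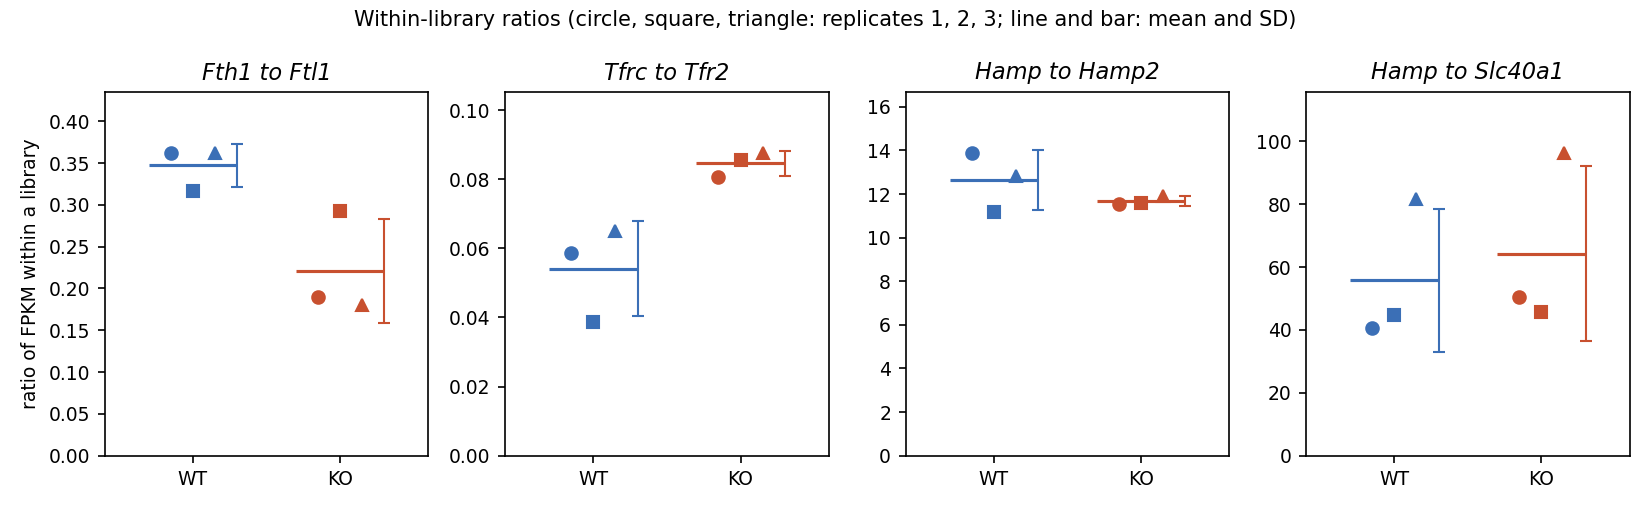
Ratios of FPKM within each library (y axes from 0) for 4 gene pairs in 3 WT and 3 KO libraries, with mean and SD. Fth1 to Ftl1 is lower and Tfrc to Tfr2 higher in every KO library, while Hamp to Hamp2 stays between 11.2 and 13.9 in all 6.

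Slc40a1 (chromosome 1, 45908070 to 45925594) encodes ferroportin, which in liver is most abundant in Kupffer cells. It was 15.2, 29.1 and 26.1 FPKM in WT against 36.3, 38.4 and 24.6 in KO. WT replicate 1 stood lowest, and KO replicate 3 fell inside the WT range. The log2 difference was 0.50 (SE 0.29, 95% interval -0.19 to 1.19, adjusted p = 0.428), and 0.23 without WT replicate 1.

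Hamp (chromosome 7, 30942369 to 30944017) encodes hepcidin. It was 616, 1307 and 2134 FPKM in WT against 1839, 1759 and 2376 in KO. Within WT the highest library was 3.46 times the lowest, against 1.35 times within KO, and WT replicate 3 exceeded 2 of the 3 KO libraries. The log2 difference was 0.72 (SE 0.45, 95% interval -0.35 to 1.79, adjusted p = 0.462). It was 0.24 without WT replicate 1 and 1.14 without WT replicate 3 (adjusted p = 0.317). Hamp2, its neighbour on chromosome 7 (30922372 to 30924181), was 44.3, 117 and 167 FPKM in WT against 159, 152 and 199 in KO, with a log2 difference of 0.82 (SE 0.47, adjusted p = 0.425) that became 0.27 without WT replicate 1 and 1.22 without WT replicate 3.

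By the same distance, Hamp2 was the tested gene with the profile closest to that of Hamp (0.25), followed by Pir (0.51), which encodes the iron-binding protein pirin, and Nt5c3 (0.58), a nucleotidase gene. Hamp exceeded Hamp2 in every library, by 13.9, 11.2 and 12.8 times in WT and 11.5, 11.6 and 11.9 times in KO (exact permutation p = 0.4, adjusted 0.5). The transcripts were 94.6% identical over 410 aligned bases, and 16.6% of the 50-base windows of Hamp also occur in Hamp2. Reads from these windows can be exchanged between both genes, and the part of this in their common profile was not tested. The ratio of Hamp to Slc40a1 ranged from 40.6 to 96.4 with overlapping groups (exact permutation p = 0.5).

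WT replicate 1, lowest in Hamp, Hamp2 and Slc40a1, also stood apart in other genes, chosen after their values were seen. Haptoglobin (Hp) was 7566 FPKM there against 5103 and 4408 in WT replicates 2 and 3, lipocalin 2 (Lcn2) 2330 against 631 and 1017, and the neutrophil gene S100a9 15.0 against 1.82 and 5.69. The KO libraries had 5127, 5157 and 4659 FPKM of Hp, 1411, 4688 and 1324 of Lcn2, and 4.03, 10.001 and 8.97 of S100a9. WT replicate 1 was thus the highest of all 6 libraries for Hp and S100a9, and KO replicate 2 for Lcn2. The part of these in the hepcidin values was not tested.

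Hfe2 (chromosome 3, 96525185 to 96529216) encodes hemojuvelin, the BMP co-receptor upstream of hepcidin. It was 17.7, 14.2 and 16.4 FPKM in WT against 21.0, 28.2 and 17.6 in KO. KO replicate 3 lay just under WT replicate 1, so the groups overlapped narrowly. The log2 difference was 0.43 (SE 0.20, 95% interval -0.058 to 0.91, adjusted p = 0.367), 0.25 without KO replicate 2 and 0.27 after rescaling.

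Per length and ordered by the mean in WT, Trf (7788 FPKM) stood first, followed by Ftl1 (1532), Hamp (1352), Fth1 (534), Tfr2 (133.4), Hamp2 (109.3), Slc40a1 (23.5), Hfe2 (16.1), Tfrc (7.14) and Scara5 (3.39). Among neighbours in this order, the WT ranges overlapped between Ftl1 and Hamp, Hamp and Fth1, Tfr2 and Hamp2, and Slc40a1 and Hfe2. In KO the order was the same except that Hamp2 (170.2) stood above Tfr2 (106.4), with no overlap between their libraries.

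Genes around the hepcidin switch were read from lists of the pathway. Of 16 tested genes for BMP signalling to hepcidin, none was called, 1 lay entirely higher in KO and 3 entirely lower, against 16.7% of all genes entirely higher and 5.44% entirely lower. The median log2 difference was 0.075, against 0.15 for all genes tested. Bmp6, the main ligand for iron sensing, was 0.521, 0.903 and 0.765 FPKM in WT against 1.41, 1.64 and 1.06 in KO (adjusted p = 0.333). Fst and Smad5 were among those entirely lower in KO. Fst, which encodes the activin and BMP antagonist follistatin, was 3.36, 3.36 and 4.40 in WT against 2.14, 0.887 and 2.69 in KO (adjusted p = 0.2997). The signal mediator Smad5 was 6.76, 6.88 and 7.46 in WT against 4.92, 5.32 and 5.34 in KO (adjusted p = 0.275).

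Of 6 tested target genes of BMP signalling, none was called and 1, Atoh8, lay entirely higher in KO, against 16.7% of all genes tested. Their median log2 difference was 0.25, against 0.15 for all genes tested. Id1, a target that rises with hepatic iron, was 6.51, 17.6 and 11.4 FPKM in WT against 31.8, 13.9 and 29.9 in KO (a log2 difference of 1.04, SE 0.42, adjusted p = 0.320), and KO replicate 2 fell inside the WT range. Like Hamp, it was lowest in WT replicate 1. Id3 was 36.2, 51.1 and 40.0 in WT against 70.3, 34.9 and 73.8 in KO. Smad7, the feedback inhibitor, was 2.55, 3.29 and 4.02 in WT against 4.35, 3.27 and 4.83 in KO, and Atoh8 was 5.35, 5.01 and 5.22 against 5.69, 7.96 and 5.38.

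On the interleukin-6 side, 10 genes were tested, none was called and all 10 overlapped between the groups. Of all genes tested, 22.1% did not overlap, 5.44% as entirely lower in KO. The median log2 difference of the 10 was -0.20, against 0.15 for all genes tested. After median-of-ratios rescaling, chosen after the data were seen, Il6ra, Il6st and Stat3 lay entirely lower in KO. These were 3 of the 10, against 9.9% of all genes tested. Il6ra, the receptor gene, was 23.0, 25.2 and 18.5 FPKM in WT against 14.9, 7.45 and 19.0 in KO (adjusted p = 0.342). Inhbb, the activin B subunit gene, was 2.82, 4.81 and 1.34 against 1.57, 1.27 and 0.864. Stat3 was 53.1, 57.4 and 46.5 in WT against 46.9, 36.4 and 47.7 in KO, and Jak2 was 3.30, 4.02 and 4.51 against 4.38, 4.51 and 4.99.

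**Figure D4:**
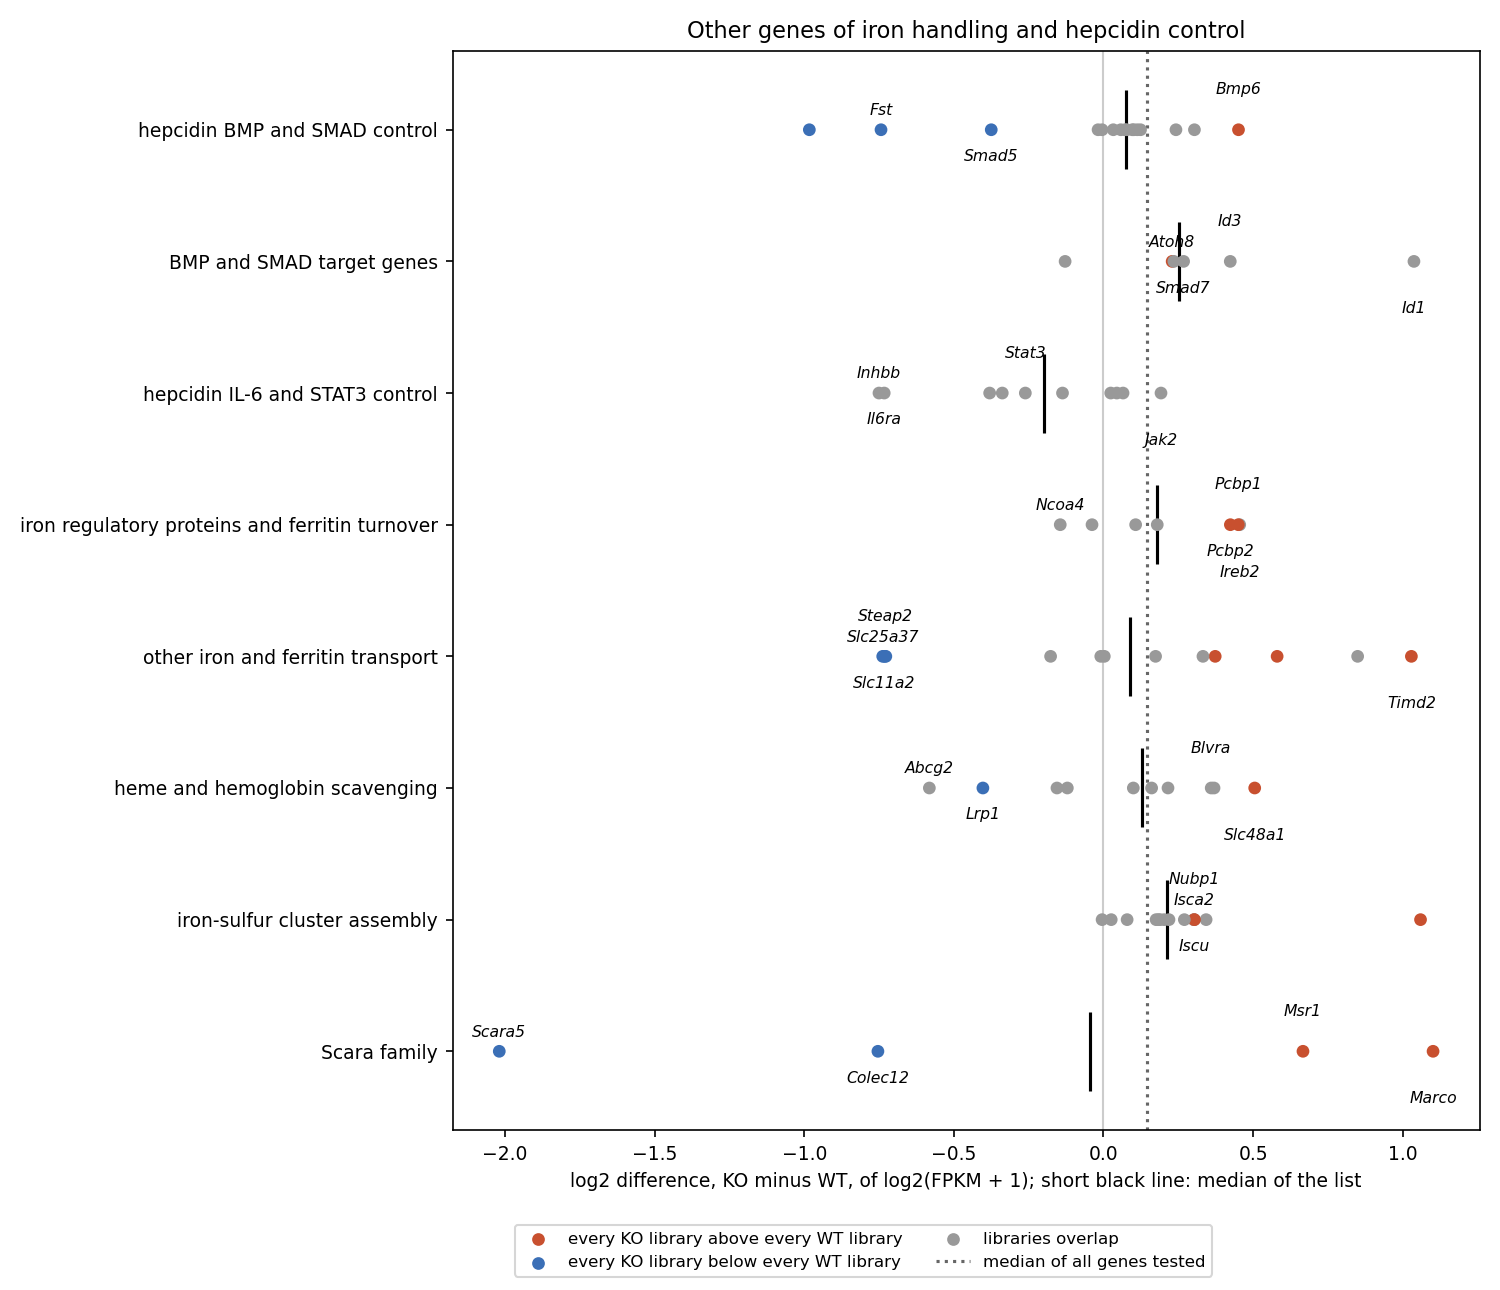
Log2 difference of KO minus WT (x axis) for the tested genes of 8 lists of iron handling and hepcidin control, with a point per gene, names on the genes the text gives values for, and a short black line at the list median. Colour marks genes whose KO libraries lie entirely above or below the WT libraries. Timd2, Id1 and Marco lie near 1, and Scara5, the lowest, is the only one called.

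Of 12 tested genes for other transporters of iron and ferritin, none was called. Their median log2 difference was 0.089, against 0.15 for all genes tested. In KO 3 lay entirely higher and 3 entirely lower, against 16.7% and 5.44% of all genes tested. Timd2, which encodes a receptor for heavy chain ferritin in the mouse, was 17.73, 10.9996 and 20.04 FPKM in WT against 31.1, 36.1 and 32.8 in KO (a log2 difference of 1.03, SE 0.23, adjusted p = 0.180). Its direction was opposite to that of the ferritin receptor gene Scara5. Slc11a2, the gene of the divalent metal transporter DMT1, was 10.5, 7.63 and 8.68 in WT against 4.02, 5.73 and 5.22 in KO (adjusted p = 0.195). Slc25a37, which encodes the mitochondrial iron importer mitoferrin 1 and is best known in red cell precursors, was 6.21, 8.71 and 8.45 in WT against 4.41, 4.45 and 3.83 in KO (adjusted p = 0.175). Steap2, a metalloreductase gene, was 1.64, 1.82 and 1.84 in WT against 0.669, 0.439 and 0.943 in KO (adjusted p = 0.208).

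In the list of iron regulatory proteins and ferritin turnover, 7 genes were tested and none was called. Their median log2 difference was 0.18, against 0.15 for all genes tested. Of the 7 genes, 2 lay entirely higher in KO, against 16.7% of all genes tested. Pcbp2, an iron chaperone gene, was 29.7, 34.2 and 33.5 FPKM in WT against 43.3, 45.4 and 42.9 in KO (adjusted p = 0.283), and its relative Pcbp1 was 67.3, 70.0 and 57.0 against 71.2, 96.7 and 100.6. Ireb2, the gene of iron regulatory protein 2, was 11.5, 11.2 and 16.8 in WT against 19.9, 10.7 and 27.4 in KO, the lowest and the highest both in KO. Ncoa4, the receptor for ferritin breakdown, was 42.5, 46.0 and 47.0 against 42.8, 45.6 and 34.5. Ftmt, mitochondrial ferritin, stood at the table's floor in all libraries.

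All 14 genes of iron-sulfur cluster assembly were tested. None was called, 3 lay entirely higher in KO and 0 entirely lower, against 16.7% and 5.44% of all genes tested. The median log2 difference was 0.21, and that of all genes tested was 0.15. Isca2 was 13.9, 16.3 and 15.6 against 19.8, 18.4 and 18.9, and Nubp1 was 9.15, 7.48 and 10.3 against 11.2, 11.6 and 10.9. The scaffold gene Iscu was 44.3, 44.2 and 52.2 in WT against 50.3, 70.8 and 54.5 in KO, with overlap.

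For heme and hemoglobin scavenging, 10 genes were tested and none was called. Their median log2 difference was 0.13, against 0.15 for all genes tested. In KO 1 lay entirely higher and 1 entirely lower, against 16.7% and 5.44% of all genes tested. Lrp1, the receptor for heme-hemopexin, was 177.7, 167.5 and 177.1 FPKM in WT against 136.7, 133.3 and 124.5 in KO (log2 difference -0.40, adjusted p = 0.309). The lysosomal heme transporter gene Slc48a1 was 9.60, 8.10 and 12.002 in WT against 12.4, 18.3 and 12.9 in KO (adjusted p = 0.326). Abcg2, an efflux pump that also exports porphyrins, was 7.89, 7.23 and 12.6 against 7.39, 5.53 and 4.41, and Blvra, a biliverdin reductase gene, was 8.25, 6.65 and 7.90 against 9.47, 8.10 and 13.0.

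The counts of genes apart shifted downward with median-of-ratios rescaling, under which 7.87% of all genes tested lay entirely higher in KO and 9.9% entirely lower. BMP signalling then had 1 gene higher and 4 lower of 16, its targets none apart of 6, and other iron transport 2 higher and 3 lower of 12. Interleukin-6 control had 3 lower of 10. Iron regulatory proteins had 1 higher and 1 lower of 7, iron-sulfur assembly 1 higher of 14, and heme scavenging 2 lower of 10. The 4 scavenger receptor genes stayed apart, 2 in each direction. Of the stellate cell and fibroblast markers, 1 was higher and 2 lower of 11.

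None of the tested markers of other cell types was called. For 22.1% of all genes tested the groups did not overlap. Sinusoidal endothelial markers, from the cells that make Bmp6 in liver, overlapped in 9 of 10, with sums of 61.7 to 90.5 FPKM in WT and 63.5 to 92.5 in KO. The exception was Cdh5, with 4.94, 7.14 and 5.60 in WT against 7.60, 8.41 and 8.53 in KO. Erythroid markers overlapped at 4 of 5 tested loci and summed to 44.0 to 61.4 FPKM in WT and 22.5 to 89.7 in KO. The tested locus that was apart was an Hba-a1 locus. Hba-a1 and Hba-a2 are listed at nearly the same positions on chromosome 11, so the assignment of their reads is uncertain. Leukocyte and neutrophil markers summed to 13.5 to 34.6 in WT and 15.3 to 25.3 in KO, and cholangiocyte markers to 12.1 to 21.1 and 12.5 to 29.0. Of 6 cholangiocyte markers 2 were tested, and Spp1, at 8.07 to 25.1 FPKM, made up most of their sum. Sox9, under the filter, was 0.920, 1.83 and 0.744 in WT against 0.0621, 0.371 and 0.242 in KO. It was named after its values were seen and lay entirely lower in KO, also after rescaling. Cftr, Epcam, Krt7, Krt19 and Spp1 overlapped between the groups. Hepatocyte markers overlapped in 8 of 10. The proliferation list had a median log2 difference of 2.09, with no gene called and all 10 overlapping between the groups. Without KO replicate 2 no sign among the 10 iron genes changed. That leaves only KO libraries with high mitotic transcripts, so genotype and mitotic state cannot be told apart there. The part of the other cell types in the differences of the iron genes was not tested.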

How the data were processed

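RNA-seq libraries of mouse liver, 3 WT and 3 KO, came from 40 h after hepatectomy. Per the labels' protocols, extraction used Trizol and miRNeasy columns, and libraries followed Illumina or Nugen protocols. The submitters' processing notes name TopHat, edgeR, mm9 and mm10, without roles. Strandedness, aligner settings and filter criteria were not given in the sources used. Per the file headers, the authors deposited FPKM per locus, with locus positions that lie on the GRCm38 (mm10) gene models. Of 23847 loci, 312 held the word LOWDATA in place of every value and were dropped. Values listed at 0.001 were set to 0.

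Genes with a mean of at least 1 FPKM (10956 of 23535) were analysed as log2(FPKM + 1) in limma 3.58.1 (R 4.3.3; eBayes with a mean-variance trend). The fit was two-sided, had genotype as the only term and used no rescaling. Benjamini-Hochberg adjustment covered all genes tested, with calls made at adjusted p under 0.05. The script was tested on simulated data. Ratios within a library were compared by exact permutation over 20 assignments. Relative depth was estimated from the ratios to WT replicate 1 of genes under 0.3 FPKM. It was the shift that put the largest share of them at ratios of whole read numbers. At that shift 62.0% to 65.9% lay within 0.02 on the log2 scale. No share expected without such a shift was computed, so these percentages do not test the estimate. Alternatives were the pseudocount, the filter, 2 rescalings, no trend, a replicate block and each library left out.

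Named genes are the 10 members, up to 4 with the smallest p per pathway list (2 per marker list), and the 3 nearest profiles of Scara5, Hamp and Tfrc. The members and lists were chosen with earlier results of these data known. Some genes that this rule names are not reported here. Alignments used Biopython 1.88.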

Additional observations from a re-analysis of the deposited data

How the results depend on the processing

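Of the 10 iron genes, all but Fth1 and Trf kept the sign of their log2 difference under all 13 alternatives, or the 12 that could be fitted for Scara5, and no gene but Scara5 was called under any. Fth1 ranged from -0.44 to 0.14 and Trf from -0.16 to 0.17 with 1 library left out. Trf was 0.0068 without WT replicate 1, 0.029 without WT replicate 2 and 0.17 without KO replicate 3, and Fth1 0.14 without KO replicate 1. Scara5 ranged from -4.33 (pseudocount of 0.1) to -1.92 and was called in 7 of 12, with adjusted p from 0.0171 to 0.159.

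The number of iron genes called was 0 to 1 with 1 library left out, and 0 with a filter of 3 FPKM, which removes Scara5. For all genes, 13 were called (2 higher, 11 lower in KO), 0 to 211 with 1 library left out, 3 with the filter of 3 FPKM and 6 with no filter. The count was 0 without WT replicate 1 (940 at an unadjusted p under 0.05) and 211 without KO replicate 2. Median-of-ratios rescaling gave 0 higher and 13 lower, and quantile normalization 0 and 14. With the replicate block 47 were called, Scara5 among them (adjusted p = 0.0390). Deviations of same-numbered libraries correlated at -0.084, 0.16 and 0.16 across genes, and not every library correlated best with its own number, so the numbers were not taken as pairs. Libraries of 2 iron genes, not 4, stayed apart after median-of-ratios rescaling, an alternative chosen after seeing the data, as were the rescaled counts of the lists.

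List medians relative to all genes moved beyond their spread between libraries as follows. Without a filter, BMP and SMAD control went from -0.072 to -0.0089, interleukin-6 control from -0.35 to -0.20 and the Scara family from -0.19 to 0.14. With the filter of 3 FPKM, other iron transport went from -0.059 to 0.016 and the Scara family to 0.51. With 1 library left out, the medians ranged from -0.087 to 0.12 for other iron transport, 0.0031 to 0.20 for iron regulatory proteins (0.033 with all libraries), -0.14 to 0.0083 for heme scavenging (-0.017) and -0.44 to -0.23 for interleukin-6 control. The Hamp to Slc40a1 ratio, 0.20 on the log2 scale, became -0.14 without KO replicate 3. Depth was estimated only in relative terms, which limits the KO values of Scara5.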
